A study of Mus musculus with 5 samples.

Results

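In mouse 3T3-L1 cells expressing macroH2A1.2 fused to GFP, 7992 autosomal regions were called as bound by the fusion protein in each of the 2 mature adipocyte samples and had no called base in the 2 pre-adipocyte samples. They were chosen by their calls. A region of one mature replicate had to overlap a region of the other by at least 1 bp, overlapping regions were merged, and a merged region was kept when it shared no bp with any region of either pre-adipocyte replicate. The 7992 regions were 23.4% of the 34121 autosomal regions common to both mature replicates, and the other 26129 shared at least 1 bp with a pre-adipocyte region. The count depended on which samples were used, and was 15906 without pre-adipocyte replicate 1, 10528 without pre-adipocyte replicate 2, 20049 without mature replicate 1 and 19365 without mature replicate 2. The same rule turned around gave 1006 regions called in pre-adipocytes alone, 5.43% of 18543 common pre-adipocyte regions. The 4 deposited lists held 195585 regions in all. Mature replicates 1 and 2 had 59375 and 61196, and pre-adipocyte replicates 1 and 2 had 36468 and 38546. Their autosomal regions covered 292, 283, 278 and 138 Mb in the same order. Pre-adipocyte regions were thus set against more called sequence than mature regions were. The percentages of 23.4% and 5.43% are therefore not a like comparison and do not measure a net gain. Membership and fold enrichment are the measurements by which these regions were selected, so their values are given as a description, with no test.

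3T3-L1 is a line of mouse fibroblasts committed to the fat lineage, and all cells in this experiment carried a lentivirus from which macroH2A1.2-GFP was stably expressed. Pre-adipocytes (n = 2) were taken before differentiation. Mature adipocytes (n = 2) had been exposed for 60 h to insulin (10 µg/ml), dexamethasone (0.25 µM) and the phosphodiesterase inhibitor IBMX (500 µM) and were then kept in insulin without the other agents. The labels do not give the day of harvest. Chromatin of all 4 samples was digested with micrococcal nuclease and precipitated with an antibody to GFP, so the regions describe the tagged, exogenous protein and not the cells' own macroH2A1, and 1 library made without antibody was the control for every sample. The groups rest on the sample titles, since the description fields of both mature samples name the undifferentiated state. The control's description also names that state, and its title names none, so the state of the control cells is not settled. None of the values analysed here measures a marker of adipocyte identity. By lipid staining, the study found that cells expressing macroH2A1.2-GFP held less lipid after differentiation than cells expressing GFP alone. The name mature adipocytes is therefore the study's name for the differentiated cells, and how far they had differentiated was not measured here.

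MacroH2A1 is a variant of histone H2A that carries a large globular macrodomain at its C-terminal end, and alternative splicing of its gene gives the isoforms macroH2A1.1 and macroH2A1.2, of which the first and not the second binds ADP-ribose. The variant lies in broad domains of chromatin rather than in narrow peaks. It is best known from the inactive X chromosome and from genes that are kept silent, and it has also been found at genes that respond to signals. In fat cell differentiation, lineage factors such as PPARγ and C/EBPα switch on genes of lipid uptake and storage while the fibroblast programme recedes.

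The lists describe where a region passed the caller's threshold and hold no read count outside regions, so the level of macroH2A1.2-GFP at these 7992 places in pre-adipocytes was not measured. Depth was unequal. Regions of pre-adipocyte replicate 2 held 2833105 ChIP reads, against 9876187 in pre-adipocyte replicate 1 and 11592708 and 11202845 in mature replicates 1 and 2, and its library was 0.549 times the size of the control library where the other 3 were 1.20 to 1.23 times. For each region, the ChIP count that its own mature fold enrichment would give at the depth of a pre-adipocyte library was set against the largest p-value in that library's list. At the depth of pre-adipocyte replicate 2, 74.0% of the 7992 regions would have reached it with the fold enrichment of mature replicate 1 and 74.7% with that of mature replicate 2, and the median fold enrichment needed was 1.71. At the depth of pre-adipocyte replicate 1, which was close to that of the mature libraries, such a share is fixed by the selection and is not given. The caller also requires enriched windows before it applies this p-value, which the shares for replicate 2 leave out. Those shares also rest on the fold enrichments through which the regions were selected, so they can lean high. They do not show that any region was absent from pre-adipocytes.

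Fold enrichment, the ChIP count over the control count scaled by library size, had a median of 1.85 in mature replicate 1 and 1.88 in mature replicate 2 over the 7992 regions. The mean of the 2 medians was 1.86 ± 0.0241 (SD, n = 2). In mature regions that shared bp with pre-adipocytes, the medians were 1.77 and 1.79. A short region with few reads needs a higher ratio to pass the same p-value, so the classes cannot be ranked in strength by it. A fold enrichment of at least 2 was seen for 39.1% of them in replicate 1 and 40.9% in replicate 2, against 28.9% and 31.2% of the shared regions. In 2198 regions (27.5%) both replicates were at 2 or above, compared with 20.1% of shared regions, and in 26 both reached 4. The 2 replicates were within 1.5-fold of each other in 7393 regions (92.5%), and over the 7992 regions their fold enrichments had a Spearman rho of 0.63, given as a description because both were measured against the same control library. 

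**Figure D1:**
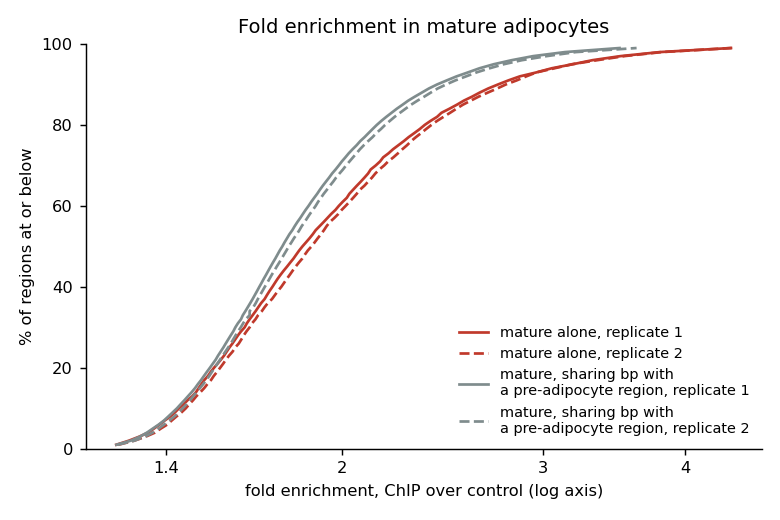
Cumulative share of regions (y, %) at or below a fold enrichment of ChIP over control (x, log axis) in mature adipocytes, with 1 line per replicate, from the 1st to the 99th percentile. The lines for regions called in mature adipocytes alone (medians 1.85 and 1.88) lie to the right of those for regions sharing bp with pre-adipocytes (medians 1.77 and 1.79), and the gap widens above a fold enrichment of 2.

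Read numbers were lower and the regions shorter than in the shared class. The median region held 116 ChIP and 50 control reads in replicate 1 and 111 and 48 in replicate 2, where shared regions held 211 and 96, and 201 and 92. Median length was 4400 bp (quartiles 3200 and 6200, range 600 to 49000), against 7000 bp in shared regions (quartiles 4400 and 11600, longest 154200). It was 2600 and 2800 bp without mature replicate 1 and 2, when no second replicate was required. Domains of at least 20 kb numbered 34 (0.425%), while 2376 shared regions (9.09%) were that long. Per kb of called sequence the classes were closer, with medians of 36.7 ChIP reads in each replicate, against 38.8 and 38.6 in shared regions, and 16.1 control reads in each replicate against 17.7 and 17.8. Most of the 7992 consisted of 1 region from each replicate (6917, or 86.5%, against 62.0% of shared regions). The bases called in both replicates made up a median of 55.1% of the merged region (quartiles 37.5% and 71.4%), a median of 2200 bp, so the outer parts of these regions often rested on 1 library.

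The highest fold enrichments came from short regions with few control reads. An 800-bp intergenic region at chr4:100023201-100024000 (mm10) held 55 and 52 ChIP reads against 6 control reads in each replicate, a fold enrichment of 7.47 and 7.19. In an intron of Fhod3, which encodes a formin that organises actin in muscle, chr18:24982001-24984400 held 56 and 91 ChIP reads against 5 and 9 control reads (fold enrichment 9.13 and 8.38). The region chr4:137675601-137678000, in an intron of the Rap1 GTPase-activating gene Rap1gap, had 80 and 55 ChIP reads and 9 and 7 control reads (7.24 and 6.51). Intronic chr5:100127401-100129000 in Tmem150c (9.78 and 6.08) and intergenic chr2:6494801-6496600 (6.79 and 5.71) completed the 5 highest by the lower replicate. With control counts of 4 to 9, these ratios carry wide counting error, and none of the 5 covered a protein-coding transcription start site (TSS).

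The longest regions showed the reverse. At chr8:53806201-53855200, an intergenic domain of 49000 bp lying 28 kb from the nearest pre-adipocyte region, 2357 and 2065 ChIP reads against 1458 and 1322 control reads gave a fold enrichment of only 1.32 and 1.30. The next, chr17:81246001-81289600 (43600 bp, also intergenic), reached 1.69 and 1.66. The region at chr8:63988401-64025600 (37200 bp, 1.26 and 1.32) overlapped exons of Tll1, which encodes a tolloid-like metalloprotease. The remaining pair were chr8:31601001-31633400 over the lincRNA Gm45304 (32400 bp, 1.31 and 1.20) and chr2:142367201-142399400 in Macrod2 (32200 bp, 1.84 and 1.92). Replicates differed little in fold enrichment over such domains, although the caller broke the longest domain into 2 regions in replicate 1 and 5 in replicate 2.

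Distances to pre-adipocyte calls varied widely. The nearest pre-adipocyte region lay a median of 6800 bp away (quartiles 2400 and 20000 bp, largest 2464600 bp). Of the 7992, 759 (9.50%) were less than 1 kb from a pre-adipocyte region, 3977 (49.8%) were 1 to 10 kb away, 2796 (35.0%) were 10 to 100 kb away and 460 (5.76%) at least 100 kb away. The most distant group had the highest median fold enrichment, 1.97 and 2.01, against 1.85 and 1.88 under 1 kb, and similar lengths (medians 4200 bp in both). There were 524 regions (6.56%) within 600 bp, the gap across which the caller joins windows, and 1724 (21.6%) had a pre-adipocyte region within 10 kb on each side. Pre-adipocyte replicate 1 held the nearest region for 4917, replicate 2 for 2919, and both for 156.

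**Figure D2:**
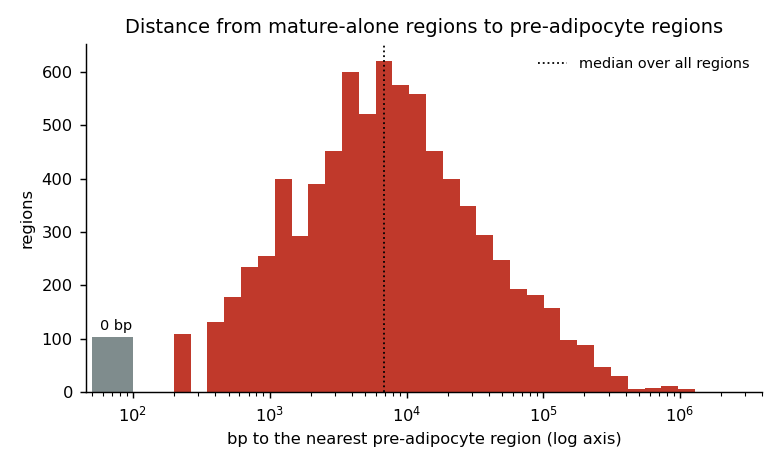
Number of regions called in mature adipocytes alone (y) by the distance in bp to the nearest region of either pre-adipocyte replicate (x, log axis), with the 104 regions at 0 bp drawn as a separate grey bar. The dotted line marks the median of 6800 bp, and the distribution tails off beyond 100 kb.

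At the edge of the rule, values on both sides were alike. There were 104 regions that touched a pre-adipocyte region without sharing a bp (median length 4400 bp, fold enrichment 1.80 and 1.85), and 127 excluded regions that shared 200 bp, the smallest overlap found (4600 bp, 1.89 and 1.97). Just inside, chr1:39028801-39036000 held 210 and 193 ChIP reads (2.14 and 1.98), chr1:64353401-64370400 held 565 and 395 (1.34 and 1.42), and chr1:84607601-84619000, in an intron of the Notch ligand gene Dner, held 323 and 236 (2.83 and 2.42). Just outside, chr1:14124401-14129000 held 176 and 107 (1.69 and 1.77), chr1:43432001-43442200 held 315 and 306 (1.47 and 1.65), and chr1:64273201-64289600 held 362 and 617 (1.31 and 1.32).

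Along the genome the regions clustered in particular places. They covered 41.0 Mb, or 1.71% of the autosomes, where shared regions covered 257 Mb. At least 1 was found in 1576 of 2414 windows of 1 Mb (65.3%), with a median of 4, yet the 206 windows with 10 or more held 2847 of them (35.6%). In 114 windows there were regions called in mature adipocytes alone and no shared region.

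The densest window, chr8:92000001-93000000, held 35 of these regions beside 15 shared ones. Mature replicates 1 and 2 had 71 and 79 regions there and pre-adipocyte replicates 14 and 11. Median fold enrichment was 1.71 and 1.68, and 29 of the 35 were centred outside genes. The window carries the homeobox genes Irx5 and Irx6, the gelatinase gene Mmp2, Lpcat2 of phospholipid remodelling, Capns2 and the noradrenaline transporter gene Slc6a2, whose TSS was the only one inside a region. In chr11:45000001-46000000, 30 regions covered 277.6 kb with a median fold enrichment of 2.37 and 2.25. They lay from chr11:45228601-45849400, past the 3′ end of Ebf1, an adipogenic transcription factor gene that reaches into the window. Clint1, Lsm11, Thg1l and Sox30 are the other protein-coding genes there. In that window mature adipocytes had 90 and 88 regions and pre-adipocytes 26 and 37. The third window, chr9:30000001-31000000, held 28 regions (median fold enrichment 2.35 and 2.63) near Snx19 and the extracellular protease genes Adamts8 and Adamts15, where mature adipocytes had 50 and 45 regions and pre-adipocytes 5 and 1. Their median distance to a pre-adipocyte region was 183.2 kb. Over the whole series the mature lists were also longer, with 59375 and 61196 regions against 36468 and 38546 in pre-adipocytes. The 3 windows were chosen for the most regions called in mature adipocytes alone. Fewer pre-adipocyte calls in them follow in part from that choice.

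**Figure D3:**
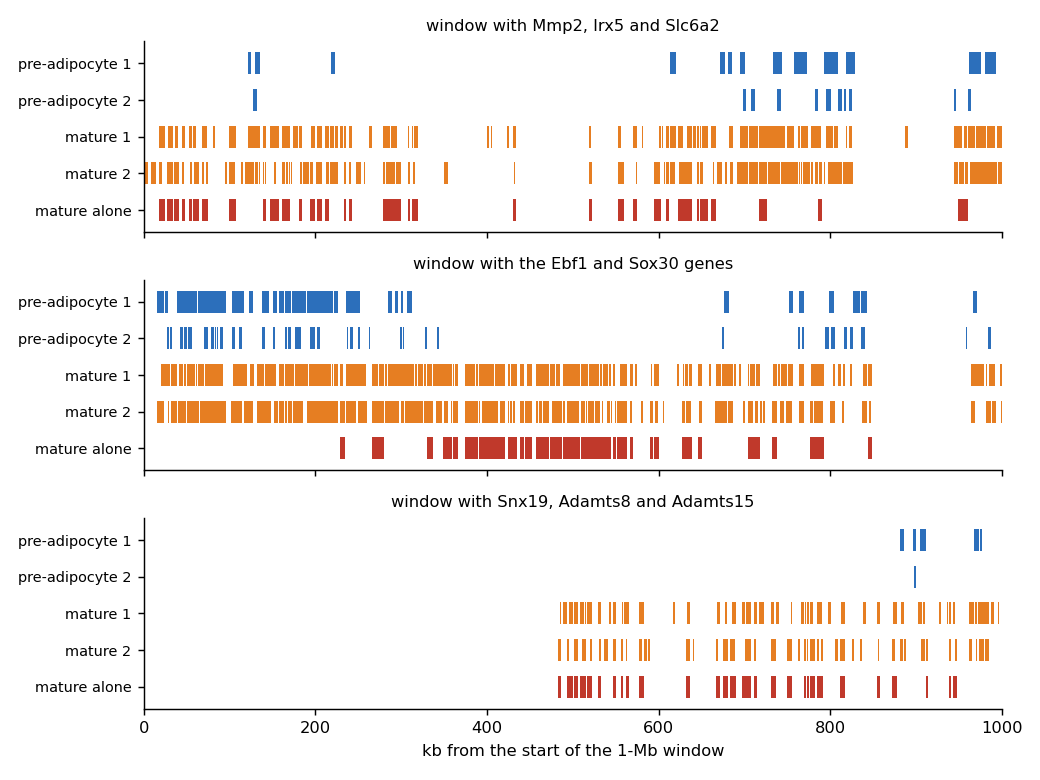
Called regions (bars) in the 3 windows of 1 Mb that held the most regions called in mature adipocytes alone, along the distance in kb from the window's start (x), with a row for each of the 4 samples and a bottom row for the regions called in mature adipocytes alone. The 3 windows held 35, 30 and 28 of them, in runs where the pre-adipocyte rows are empty or sparse.

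By autosome, the density was highest on chromosome 13 (5.04 per Mb) and chromosome 11 (4.91 per Mb) and lowest on chromosome 7 (0.977 per Mb) and chromosome 12 (2.24 per Mb), with 3.33 per Mb over all autosomes. Shared regions had a density of 10.9 per Mb over all autosomes and ran from 1.25 per Mb on chromosome 7 to 22.4 per Mb on chromosome 15. The share of common mature regions that were called in mature adipocytes alone therefore ranged from 12.3% on chromosome 17 to 43.8% on chromosome 7, where there were 139 such regions beside 178 shared ones. Chromosomes 12 (41.5%) and 4 (40.6%) were also high. Over the 19 autosomes, the density of these regions had a Spearman rho of 0.42 with the density of shared regions and of 0.07 with the density of protein-coding genes. All points come from the same 4 libraries, so this is a description.

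**Figure D4:**
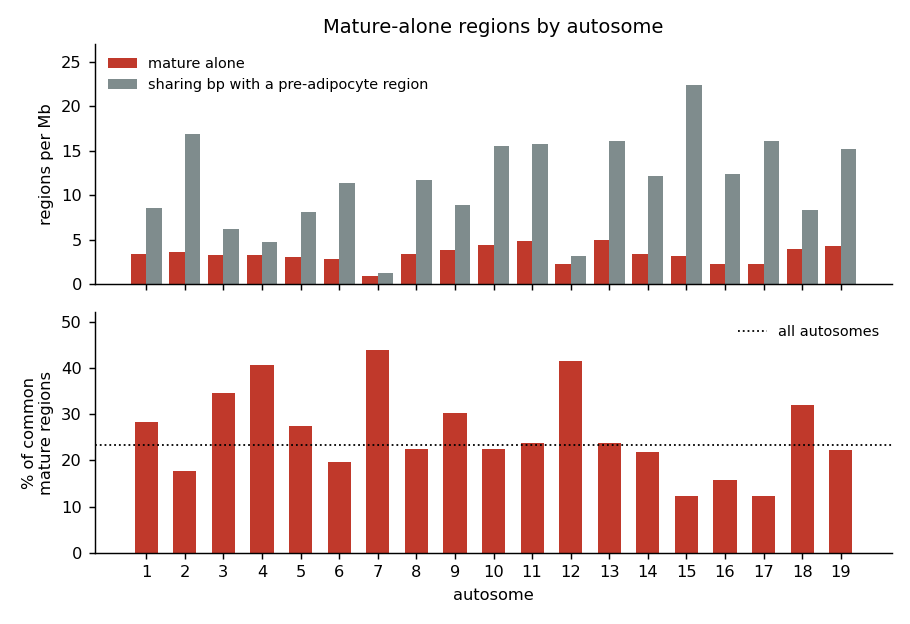
Density of regions per Mb on each autosome (top), for regions called in mature adipocytes alone and for mature regions sharing bp with a pre-adipocyte region, and the first class as a percentage of all common mature regions (bottom), with the value over all autosomes, 23.4%, as a dotted line. Chromosome 7 has the lowest density of both classes and the highest percentage, 43.8%.

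Most of the regions were centred between genes. Intergenic midpoints made up 57.7% (4613 regions), introns 37.4% (2989), exons 2.58% (206) and promoters, counted from 1000 bp before to 100 bp after a TSS, 2.30% (184). Shared regions gave 62.3%, 33.7%, 2.15% and 1.84%, and autosomal DNA as a whole 50.4%, 43.3%, 3.73% and 2.60%. Both classes were thus centred between genes more often than bases of the genome are. Fold enrichment hardly varied with position, from 1.83 and 1.86 in introns to 1.93 and 1.97 in promoters. Protein-coding TSSs lay inside 231 regions (2.89%), against 4.31% of the longer shared regions. Without mature replicate 1 the share was 1.82%. Per Mb of region the order was reversed, with 5.64 regions over a TSS per Mb compared with 4.38. Regions called in pre-adipocytes alone gave 4.99. A region counts once however many TSSs it holds, which favours shorter regions, so this measure does not rank the classes.

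Of 20720 autosomal protein-coding genes with an annotated start, 230 (1.11%) had a TSS inside one of these regions. In 98 of the 230 the TSS was called in both mature replicates, and in the others it lay in a part called in a single one. The corresponding numbers for shared regions were 563 of 1121. No pre-adipocyte region touched the gene body in 121 of the 230. The matching share over all genes is not given here, so this count does not set these genes apart.

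The promoters under these regions were poor in CpG. RefSeq promoter windows (GRCm38.p6, 250 bases before to 50 after a start) lay wholly inside the regions in 388 cases, with a median GC content of 48.0%, a median of 4 CpG dinucleotides and a median observed-to-expected CpG ratio of 0.249. In the 2516 windows inside shared regions the ratio was 0.232, and over all 31365 autosomal windows it was 0.388, with 53.0% GC. A ratio of at least 0.6, the usual mark of a CpG island, was found in 40 of the 388 windows (10.3%), in 9.90% of those in shared regions and in 36.4% of all windows. The range is shown by 5 promoters. All are windows whose gene had an annotated TSS called in both replicates, and capitals mark each CpG on the strand of the gene, 5′ to 3′.
Pparg, chr6:115421816-115422115, plus strand: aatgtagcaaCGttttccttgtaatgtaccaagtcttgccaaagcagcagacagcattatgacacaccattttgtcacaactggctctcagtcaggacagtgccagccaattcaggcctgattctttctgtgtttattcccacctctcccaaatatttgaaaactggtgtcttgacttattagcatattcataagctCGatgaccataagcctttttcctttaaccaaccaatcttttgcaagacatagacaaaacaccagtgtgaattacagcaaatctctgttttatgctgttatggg
Cd36, chr5:17835847-17836146, minus strand: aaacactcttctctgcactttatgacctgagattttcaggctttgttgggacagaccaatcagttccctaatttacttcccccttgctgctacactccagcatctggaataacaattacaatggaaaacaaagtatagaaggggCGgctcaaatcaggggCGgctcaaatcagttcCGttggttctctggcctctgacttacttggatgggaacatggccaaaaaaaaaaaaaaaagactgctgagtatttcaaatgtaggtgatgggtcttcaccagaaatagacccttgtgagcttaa
Npy4r, chr14:34152370-34152669, minus strand: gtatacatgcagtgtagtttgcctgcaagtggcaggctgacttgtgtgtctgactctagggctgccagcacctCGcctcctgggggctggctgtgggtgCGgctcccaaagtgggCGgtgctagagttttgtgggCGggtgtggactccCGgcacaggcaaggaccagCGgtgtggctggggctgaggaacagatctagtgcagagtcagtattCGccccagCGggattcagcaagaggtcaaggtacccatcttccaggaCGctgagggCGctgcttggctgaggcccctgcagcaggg
Il20ra, chr10:19712337-19712636, plus strand: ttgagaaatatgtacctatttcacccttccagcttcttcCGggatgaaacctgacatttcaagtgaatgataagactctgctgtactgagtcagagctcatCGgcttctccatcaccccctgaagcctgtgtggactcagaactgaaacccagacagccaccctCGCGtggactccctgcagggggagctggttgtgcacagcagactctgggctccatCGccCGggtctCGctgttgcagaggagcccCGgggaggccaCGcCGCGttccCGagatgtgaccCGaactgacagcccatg
Gata3, chr2:9878551-9878850, minus strand: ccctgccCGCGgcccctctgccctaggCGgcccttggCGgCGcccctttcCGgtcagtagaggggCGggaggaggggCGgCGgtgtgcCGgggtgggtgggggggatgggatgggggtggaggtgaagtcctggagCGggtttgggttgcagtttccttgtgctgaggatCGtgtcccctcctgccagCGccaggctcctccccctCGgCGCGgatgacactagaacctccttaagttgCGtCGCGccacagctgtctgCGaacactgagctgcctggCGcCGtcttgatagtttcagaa
The windows hold 2 CpG in Pparg, 3 in Cd36, 10 in Npy4r, 13 in Il20ra and 22 in Gata3, and only that of Gata3 exceeded the ratio of 0.6 (0.658). Searched on both strands, AGGTCA, the half-site of PPAR and RXR response elements, occurred in 22.9% of the 388 windows, 20.1% of those in shared regions and 16.3% of all. The GATA-type sequence AGATAA occurred in 14.2%, 14.5% and 11.2%. Each share is close to that of shared regions. The Cd36 and Npy4r windows hold AGGTCA on one strand, and the Pparg, Il20ra and Gata3 windows hold neither sequence.

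Among the 12 genes with a TSS in a region of highest fold enrichment, the TSS was called in both replicates in 4. These were Chst3, which encodes a chondroitin sulfotransferase, Npy4r, the receptor for pancreatic polypeptide, Il20ra, a receptor subunit for interleukin-20, and Rbfox3, the neuronal splicing factor known as NeuN. The Npy4r region, chr14:34150601-34153800, held 106 and 83 ChIP reads against 31 and 24 control reads, a fold enrichment of 2.79 and 2.87, 13.4 kb from the nearest pre-adipocyte region. Il20ra (chr10:19711201-19714600) had 129 and 91 ChIP reads and a fold enrichment of 2.69 and 3.02, Chst3 (chr10:60186601-60191400) 97 and 140 reads and 2.93 and 2.83, and Rbfox3 (chr11:118910601-118913400) 88 and 67 reads and 2.66 and 3.27. The regions of Il20ra, Chst3 and Rbfox3 lay 1.8, 4 and 12.8 kb from a pre-adipocyte region. In the other 8 the TSS lay in the part called by 1 replicate. The highest ratio, 3.90 and 6.22, belonged to Btbd17, whose region held 67 and 60 ChIP reads against 14 and 8 control reads. Adra2c, the alpha-2C adrenergic receptor gene, reached 3.51 and 3.36 with 224 and 77 ChIP reads. Prkag2, a regulatory subunit of the energy sensor AMPK, had 3.31 and 3.97, Gpat2, a mitochondrial glycerol-phosphate acyltransferase, 3.31 and 3.24, and the epidermal lipoxygenase gene Alox12e 3.12 and 3.48. Lcn9 (3.06 and 3.50), the calcium-binding protein gene Kcnip3 (2.82 and 2.98) and Tdgf1, the Nodal co-receptor Cripto (3.22 and 2.78), made up the rest. A pre-adipocyte region touched the gene body in 5 of the 12.

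Within gene bodies, 1607 of 20807 autosomal protein-coding genes (7.72%) held at least 1 of these regions, and in 1510 of them a base of the body was called in both replicates. These were long genes, with a median of 67.8 kb against 17.6 kb for all and 38.7 kb for genes with a shared region. A pre-adipocyte region also touched 1114 of the 1607, and 493 (30.7%) had none. Without the matching share over all genes, the 493 cannot be read as genes newly bound in mature adipocytes.

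The genes with the largest number of regions were themselves long. Hdac9, which encodes a class IIa histone deacetylase, held 25 regions over 158621 bp, 18.2% of the gene. Of these 25, 19 were intronic, 4 covered coding exons and 1 covered an internal TSS, and the median fold enrichment was 1.53 and 1.49. Macrod2, a gene for an ADP-ribosyl hydrolase with a macrodomain of its own, held 23 with a median fold enrichment of 1.68 and 1.60 and a median distance of 189 kb to pre-adipocyte calls, although 640000 and 320800 bp of this gene of 1997658 bp lay in regions of pre-adipocyte replicates 1 and 2. Cacna1d, an L-type calcium channel gene, held 17 (2.43 and 2.30) and Erc2, a protein of the presynaptic active zone, 16 (2.11 and 1.95). The annotated model Gm20388, which spans 4434882 bp and runs over many other genes, also held 17.

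Some smaller genes were covered over most of their length by merged regions, parts of which were called in 1 replicate only. The Pjvk region of 8000 bp, for example, had 2000 bp called in replicate 1 and 6800 in replicate 2. A Gm11146 region of 17800 bp had 16800 and 2200. Among genes of at least 10 kb, Il22ra2, the soluble decoy receptor for interleukin-22, had 12681 of its 12684 bp inside 1 region, chr10:19622001-19636000, with 291 and 401 ChIP reads and a fold enrichment of 1.88 and 1.77. Myoc (83.9%), encoding myocilin, lay in chr1:162633001-162648000 with 416 and 365 ChIP reads (1.41 and 1.64), 116.4 kb from a pre-adipocyte region. Csf2rb, the common beta chain of the interleukin-3, interleukin-5 and GM-CSF receptors, was covered to 63.5% by 4 regions with a median of 3.18 and 2.56, and its TSSs were called in both replicates. The others were Gm11146 (94.1%), the adhesion receptor gene Adgrg5 (83.1%), the protease inhibitor gene Serpinb9b (82.1%), the hair keratin gene Krt28 (80.8%), the hearing gene Pjvk (79.4%), the neural repressor gene Scrt2 (71.5%) and Gm28053 (68.2%), a model that overlaps Gimap1, Gimap5 and Gimap7 of lymphocyte survival. In 9 of the 10, with Csf2rb the exception, no base of the gene lay in a pre-adipocyte region. The 10 were chosen for coverage by regions that hold no pre-adipocyte base. That count therefore follows largely from the choice and is no separate result.

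Genes of fat cell biology were looked up in 8 lists, in which 21 genes held 36 of the regions. Against the 7.72% of all protein-coding genes, the shares ranged from 4.26% to 18.8% and rested on 2 to 4 genes each. Median gene length ran from 11.8 kb in the study's expression genes to 74.0 kb in the insulin signalling list, against 17.6 kb for all genes. Longer genes offer more room for a region, so the shares do not rank the lists.

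Adipogenic transcription factor genes with a region were Pparg, Gata3, Zfp423 and Ebf2, 4 of 27 (14.8%). All 4 also had a pre-adipocyte region in the gene body. Pparg, the master regulator of fat cell differentiation, held 3. The middle one, chr6:115418201-115432600, covered the internal TSS at 115422066 that is shown above, in both replicates, with 538 and 450 ChIP reads against 378 and 293 control reads. Its fold enrichment of 1.16 and 1.27 was the lowest among the regions in listed genes. The intronic regions on either side, chr6:115401601-115406400 (167 and 79 ChIP reads) and chr6:115477601-115481000 (98 and 88), reached 1.50 and 2.34 and 1.51 and 1.55. All 3 lay 1.2 to 4.2 kb from a pre-adipocyte region. Gata3, a repressor of the pre-adipocyte to adipocyte transition, had a region of 2800 bp over an internal TSS at chr2:9878001-9880800. That region held 88 and 86 ChIP reads (1.43 and 1.49), with the nearest pre-adipocyte call 16.4 kb away. Zfp423, a determinant of the pre-adipocyte state, held 4 intronic regions with fold enrichments of 1.31 to 2.17 in replicate 1 and 1.45 to 2.13 in replicate 2. Ebf2, a selector of brown adipocyte fate, held an intronic region with 84 and 74 ChIP reads (2.74 and 2.92) and a region over a coding exon with 144 and 176 (1.86 and 2.35).

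In the thermogenic list, 3 of 16 genes (18.8%) held a region, namely Ebf2, Prdm16 and Cidea. Prdm16, which specifies brown fat, had an intronic region at chr4:154495401-154502000 with 222 and 230 ChIP reads against 53 and 59 control reads. Its fold enrichment of 3.41 and 3.23 was similar in both replicates, and it lay 282 kb from the nearest pre-adipocyte region. Cidea, a lipid droplet protein, had chr18:67343801-67349200 with 69 and 174 ChIP reads and 4.68 and 2.53, of which the replicate 1 call spanned 1800 of 5400 bp. The Cidea region lay 5.2 kb from a pre-adipocyte region.

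Lipid handling and adipokine genes counted 3 of 31 (9.68%). Cd36, the fatty acid transporter, held 2 regions. One, chr5:17828001-17837800, covered internal TSSs and not the outermost start of the gene. It had 298 and 314 ChIP reads against 178 and 172 control reads (1.36 and 1.51). The other, chr5:17819801-17825800, had 91 and 245 ChIP reads (2.12 and 1.71). These Cd36 regions lay 1.8 and 1.6 kb from a pre-adipocyte region, in that order. Acacb, the acetyl-CoA carboxylase that restrains fatty acid oxidation, had 272 and 129 ChIP reads in chr5:114157201-114169800 (1.50 and 2.06). That region lay 97.4 kb from pre-adipocyte calls and covered an internal TSS, called in replicate 1 only. Pnpla3, a lipid droplet acyl hydrolase, had 110 and 143 reads over coding exons in chr15:84183201-84187200 (3.58 and 2.58), 53.4 kb from pre-adipocyte calls. Of 18 genes that the study's text names from its expression profile of mouse fat, Acacb and the deacetylase gene Sirt1 held a region. That in Sirt1 was intronic and small, with 72 and 40 ChIP reads in chr10:63377001-63378600 (1.63 and 1.75), 169 kb from a pre-adipocyte call. The study examined both genes in its ChIP-Seq data but named enriched regions only in Ucp1, Cdkn1a, Fasn and Slc2a4. It described those as inconsistent between duplicates and not significantly different between conditions. The regions in Acacb and Sirt1 thus differ from its account, and the reason was not tested.

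**Figure D5:**
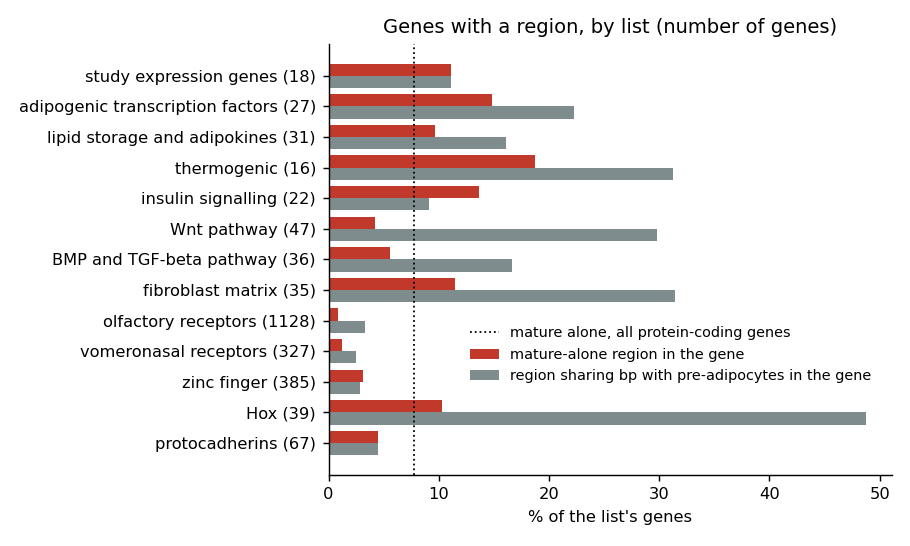
Percentage of the genes of each list (x; number of annotated genes in parentheses) that held a region called in mature adipocytes alone or a mature region sharing bp with pre-adipocytes. The dotted line is the 7.72% of all autosomal protein-coding genes that held a region called in mature adipocytes alone, and the longest bar of that class is the thermogenic list at 18.8%, which is 3 of 16 genes.

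For insulin signalling, 3 of 22 genes (13.6%) held a region, of which 2 are described here. Igf1, the growth factor that liver and fat secrete, had 66 and 125 ChIP reads against 22 and 46 control reads in chr10:87856201-87859800, which covered 4 of its TSSs and gave a fold enrichment of 2.44 and 2.25, 1 kb from a pre-adipocyte region. The adaptor gene Grb10, an inhibitor of the insulin receptor, had 224 and 124 reads in an intron (2.15 and 1.94) and touched a pre-adipocyte region.

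Wnt signalling, which restrains adipogenesis, contributed 2 of 47 genes (4.26%), both secreted antagonists. Dkk2 held 5 regions with fold enrichments of 1.51 to 1.92 in replicate 1 and 1.33 to 2.02 in replicate 2, the longest (15800 bp, 421 and 526 ChIP reads) in an intron, and all within 4.8 kb of pre-adipocyte calls. Sfrp1 held 2, with 91 and 67 and 187 and 248 ChIP reads (1.72 and 2.14, 2.03 and 2.26). From the BMP and TGF-beta list, 2 of 36 (5.56%) did so, the type I receptor gene Acvr1c (70 and 121 reads, 1.97 and 1.36) and the ligand gene Bmp3 (156 and 187, 1.50 and 1.87). Fibroblast matrix genes gave 4 of 35 (11.4%), with elastin, Eln, at 3.01 and 2.57 (107 and 121 reads), Col15a1 at 2.40 and 1.98, the fibrillin gene Fbn2 at 2.36 and 2.95, and Col12a1 with 4 regions between 1.30 and 1.60 in replicate 1 and between 1.37 and 1.90 in replicate 2.

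Large clustered families were looked up by symbol. Olfactory receptor genes held a region in 10 of 1128 cases (0.887%) and vomeronasal receptor genes in 4 of 327 (1.22%), under the 7.72% of all genes but with median lengths of 5.99 and 10.3 kb that offer less room. Zinc finger genes of the Zfp series reached 12 of 385 (3.12%), protocadherins 3 of 67 (4.48%), where Pcdh9 alone held 7, and Hox genes 4 of 39 (10.3%). The Hox genes were the posterior Hoxa11, Hoxa13 and Hoxd13 and the anterior Hoxb1, with fold enrichments of 1.92 and 1.75, 1.47 and 1.41, 2.02 and 1.98, and 3.16 and 2.05. A shared region lay in 19 of the 39 Hox genes (48.7%) and in 13.9% of all protein-coding genes, and the difference was not tested.

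Of 917 autosomal miRNA hairpins in RefSeq, 8 (0.872%) lay in these regions and 49 (5.34%) in shared regions. These regions covered 1.71% of the autosomes, and shared regions covered 257 of 2403 Mb. The larger class offers more room for a hairpin, so the shares do not rank the classes. The domain chr11:28750401-28765800, called in both replicates over both hairpins, held miR-216a and miR-217, both known from the pancreas, with 503 and 429 ChIP reads (1.81 and 1.79). Another, chr16:77589401-77607200, spanned miR-99a and let-7c with 648 and 90 ChIP reads (1.15 and 1.55), but both hairpins lay in the part called in replicate 1 only. Their 5p strands are printed with the seed, bases 2 to 8, in capitals, and no seed was shared among the 4.
mmu-miR-216a-5p: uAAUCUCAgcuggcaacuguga
mmu-miR-217-5p: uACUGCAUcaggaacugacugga
mmu-miR-99a-5p: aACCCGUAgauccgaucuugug
mmu-let-7c-5p: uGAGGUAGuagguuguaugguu
The other hairpins were Mir5622 in Tpx2 (1.38 and 1.46), Mir6715 in Tectb (1.72 and 1.71), Mir1971 and Mir7212.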

How the data were processed

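Chromatin of 3T3-L1 cells was analysed from 4 anti-GFP samples, with a no-antibody library as control that enters only through the control counts. Per the submitters' processing notes and the methods, the authors mapped single-end reads to the mm10 build using Bowtie 1.1.2 (unique hits, at most 2 mismatches), used Picard to remove duplicates and called regions per sample with SICER 1.1 in windows of 200 bp with gaps of 600 bp. The deposited tables give, per region, raw counts of ChIP and control reads, neither normalized. The deposited p-value compares the ChIP count with the scaled control count, and the FDR from it was at most 0.001, where the methods name a looser limit. The deposited fold enrichment is a ratio of both counts, which the authors scaled for library size. The methods' paragraph on immunoprecipitation names mouse adipose tissue, whereas the labels name 3T3-L1.

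Positions in the tables count from 0 and include the last base. They are printed counting from 1. Counts of a merged region are sums over its deposited regions in each replicate, and its fold enrichment is their ratio scaled by the library factor, recovered from the deposited values. Midpoints were assigned to promoter, exon, intron or intergenic sequence from GENCODE M21 basic transcripts (GRCm38), in that order, and promoters and miRNAs were taken from RefSeq (GRCm38.p6). No test was made: membership uses every sample, and 2 samples against 2 cannot give a two-sided exact p under 0.333. The methods call the replicates biological, without saying whether they were separate cultures. The members and the gene lists were chosen with earlier results of these data known. Named items were the 5 regions of highest fold enrichment by the lower replicate and the 5 longest, the 3 nearest to the rule's edge on each side, the 3 fullest windows of 1 Mb, the 2 autosomes with the most and the 2 with the fewest per Mb, 12 genes with a TSS in the regions of highest fold enrichment, the 10 genes of at least 10 kb with the largest share covered, the 5 genes with the most regions and every listed gene with a region, except 1 that is not reported here. Alternatives varied the FDR, fold enrichment, replicate overlap, gap and samples. Interval functions were tested on simulated regions against direct counting. Python 3.11.15, numpy 2.4.6, pandas 2.3.3 and scipy 1.17.1 were used.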

Additional observations from a re-analysis of the deposited data

Results flagged for a closer look

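Chromosome X lies outside the autosomal rule. By the same steps, 110 of its 275 regions common to both mature replicates (40.0%) shared no bp with a pre-adipocyte region, against 23.4% on the autosomes, and it was set aside as data that no comparison above uses. The share lies within the range of the autosomes, which reached 43.8% on chromosome 7, and the difference was not tested.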

How the results depend on the processing

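Every value here describes the 7992 regions, of which a median length of 4400 bp, a median fold enrichment of 1.86, an intergenic share of 57.7% and a share of 2.89% covering a protein-coding TSS were reported. With an FDR of at most 1e-05 in all 4 samples, 7428 regions remained under the rule, with 1.94, 4800 bp and 59.5% intergenic. The same limit in mature adipocytes alone, chosen after seeing the data, gave 5649, 2.04 and 58.5%. Mature regions with a fold enrichment of at least 2 gave 2300, 2.48, 3800 bp and 57.5%. A replicate overlap of 50% of both regions gave 5040, 3800 bp, 58.6% and 2.58% over a TSS. A gap of at least 5 kb to pre-adipocyte regions gave 4675 and 57.3%, and one of 1 kb gave 7233 with no value moved beyond the replicate SD. Excluding only by regions common to both pre-adipocyte replicates gave 17161, 1.83, 5000 bp, 59.3% and 3.28%. Counting a TSS within 1 kb of a region raised its share to 5.93%. Leaving out 1 sample at a time gave 10528 to 20049 regions, a median length of 2600 to 4800 bp, an intergenic share of 55.3% to 59.2% and a TSS share of 1.82% to 3.25%, while the median fold enrichment stayed between 1.84 and 1.87. The number was 15906 without pre-adipocyte replicate 1, 10528 without pre-adipocyte replicate 2, and 20049 and 19365 without mature replicates 1 and 2, where no second replicate was required. The cause of these moves was not tested, except that fewer excluding or required samples admit more regions by construction. The median fold enrichment stayed above 1.8 under all of these settings. The caller's threshold holds this median up, as do the stricter FDR and the fold limit of at least 2, so it is no evidence of stability. No paired analysis was possible because the result comes from no test, and the shared replicate numbers only name samples.

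Pre-adipocyte replicate 2 was the shallowest library, at 0.549 times the control, and the part of depth in the count was not tested. The lists give no read count outside called regions, so neither a level in pre-adipocytes nor a difference from it was computed, and small control counts leave the highest fold enrichments imprecise. With 2 replicates per condition the spread is an estimate from 2 values.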
